A study of Arabidopsis thaliana with 22 samples.

Results

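The differentiation zone (DZ) and the meristematic-elongation zone (MEZ) of Arabidopsis thaliana roots were compared in plants that received no SCOOP12 peptide. SCOOP12 is a secreted peptide of the SCOOP family, cut from the precursor PROSCOOP12 and sensed at the surface of plant cells. The libraries were chosen by their titles alone: 11 of the 22 libraries of the series had the water control, 5 of them from DZ and 6 from MEZ. They were proscoop12 DZ (replicates 1, 3 and 4), Ws DZ (replicates 3 and 4), proscoop12 MEZ (replicates 1, 3 and 4) and Ws MEZ (replicates 1, 3 and 4). Ws is the wild-type accession, and proscoop12 is a mutant of the precursor gene in that background; the labels give neither the allele nor the number of lines. All plants were 11 days old and grew in short days, with 8 h of light at 22 °C, 16 h of darkness at 21 °C and 70% relative humidity. The other 11 libraries, from plants given 100 nM SCOOP12, are used near the end, to read the same loci in samples that took no part in choosing them.

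The MEZ is the root tip, where cells divide and then elongate. The DZ lies above it, where cells have stopped growing and take on mature features such as root hairs, the endodermal barrier of Casparian strips and suberin, and lignified vessels. Plant non-coding RNAs include the structural RNAs of ribosomes and spliceosomes, snoRNAs that guide the modification of ribosomal RNA, precursors of microRNAs and of trans-acting siRNAs, and long non-coding RNAs, many of which are transcribed from the strand opposite to a coding gene. The seed of a mature microRNA is a stretch near its 5′ end, and in plants pairing with a target RNA is not limited to it.

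Each library gave estimated read counts for 5224 loci, and none of them is annotated as protein-coding; coding transcripts were not analysed here. Of 24 coding markers of meristem and elongation, 30 of differentiation and 5 of shoot tissue, 0 had a value and 0 lay opposite a tested locus, so the zone labels could not be checked by markers, and neither could the genotypes by PROSCOOP12. Libraries held 678614 to 1183346 reads on these loci in DZ and 533272 to 1104937 in MEZ, but 103350 to 145721 in DZ and 75054 to 118362 in MEZ once mitochondrial, plastid and nuclear ribosomal loci were set aside. Of the 5224 loci, 2233 had reads and 560 passed the filter on low counts. The first principal component of the 560 loci, with 56.4% of the variance, separated the zones, and the second, with 12.9%, set replicate 4 apart from replicates 1 and 3. File names place replicate 4 in another sequencing run. The library labelled proscoop12 DZ replicate 3 carries the file name of another group (Ws DZ with SCOOP12), so counts are also given without it and with the library whose file name matches.

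Across both genotypes, 277 of the 560 loci (49.5%) differed between the zones at an adjusted p under 0.05, 137 higher in DZ (24.5%) and 140 lower in DZ (25%), by edgeR's quasi-likelihood test with genotype and replicate as blocks and Benjamini-Hochberg adjustment. Fitted for each genotype in the same model, 223 loci passed in proscoop12 (39.8%; 117 higher and 106 lower in DZ) while in Ws 102 were higher and 84 lower in DZ (33.2%). Both lists shared 157 loci with the same sign (28%), which is 70.4% of the proscoop12 calls and 84.4% of the Ws calls, and 0 loci passed in both with opposite signs. These 157 loci are called common below: 89 were higher in DZ (15.9% of tested loci) and 68 lower in DZ (12.1%). The proscoop12 and the Ws comparison share no library, though one fit with a shared spread gave both. With the library labelled proscoop12 DZ replicate 3 left out, 145 loci were common, and with its place taken by the library whose file name matches, 134. Without Ws DZ replicate 4 the Ws calls came to 117 and the common loci to 108.

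Scaling sets the balance between the directions. Scaled by the totals of the tested loci alone, without TMM factors, 157 loci were common too, but only 91 of them were among the 157 found with TMM, and 23 were higher and 134 lower in DZ, and for both genotypes together 60 were higher and 282 lower. In proscoop12 38 were then higher and 177 lower, and in Ws 31 and 174. The median of all 560 loci was −0.67 on the log2 scale (DZ over MEZ) with library totals and −0.01 with TMM. All changes below are relative to the TMM scale, on which the median locus moved by −0.01. The totals themselves differ in make-up between the zones. Organellar reads averaged 39.3% of listed reads in DZ and 19.2% in MEZ, and nuclear ribosomal reads, the other way, 47.1% and 65.7%. Whether this make-up accounts for the gap between the 2 scales was not tested.

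**Figure D1:**
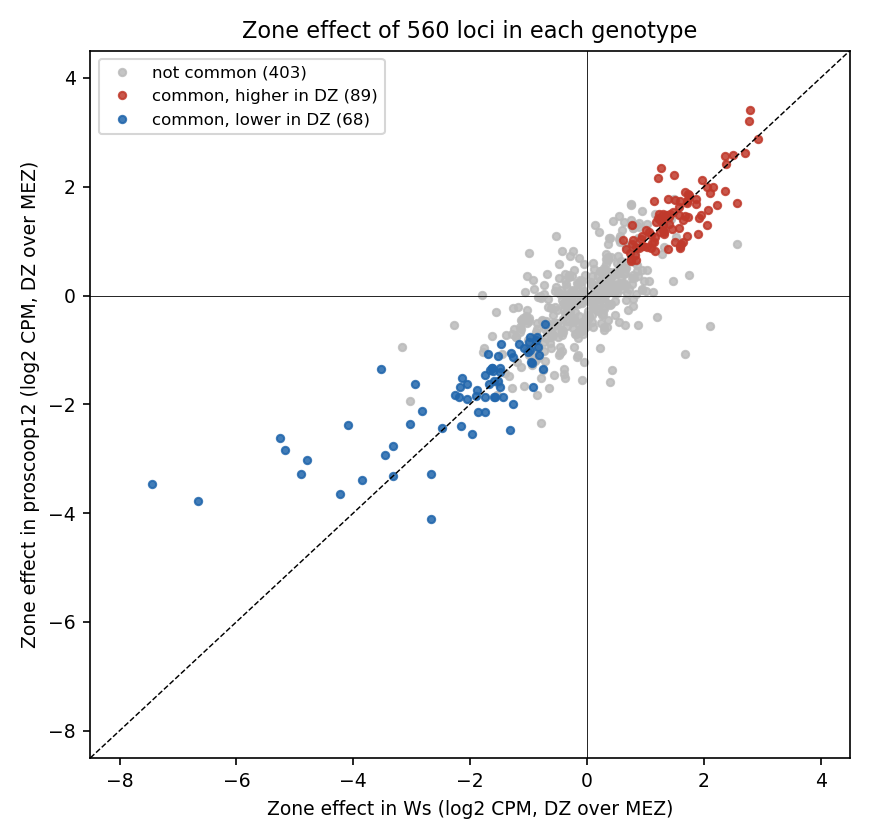
Zone effect of the 560 tested loci in each genotype. The x axis is the log2 fold change, DZ over MEZ, in Ws and the y axis the same in proscoop12; each point is a locus, red points are the 89 common loci higher in DZ, blue points the 68 common loci lower in DZ, grey points the other 403, and the dashed line marks equal effects. Common loci lie in the upper right and the lower left, and the 2 loci farthest to the left have 0 reads in the Ws DZ libraries.

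The common loci higher in DZ had a median log2 fold change of 1.40, and those lower in DZ a median of −1.74, against −0.01 for all tested loci. Changes of more than 4-fold were seen for 12 loci higher in DZ and 21 lower in DZ, and of more than 8-fold for 1 and 12. The 89 higher loci were more abundant, with a median of 171.2 CPM (counts scaled to 1000000 on the tested loci, with TMM factors) over the 11 libraries, against 83.9 CPM for the 68 lower loci and 50.1 CPM for all tested loci. Their median length was 856 nt, against 568 nt for the lower loci and 713 nt for all. The DZ and MEZ libraries did not overlap at 128 of the 157 common loci, and at 164 of all 560 (29.3%). In whole tissue, fewer cells of a type and less RNA per cell cannot be told apart.

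Sequences are shown for the microRNA precursors with a zone difference, because the mature RNA is what a reader would look up, and for 4 of the 24 leading loci described below, all free of coding exons: AT4G06790 and AT5G09735 had the largest fold change of such loci in each direction, AT1G69252 was the most abundant of those higher in DZ, and AT1G19968 was picked after its values were seen as a lower locus with more reads. Both sets come from RefSeq's TAIR10.1 annotation of the Col-0 accession, not from Ws, and were matched by locus name; all coordinates in the text are of that build, and the build behind the files is not stated. In the mature microRNAs, capitals mark the seed (bases 2 to 8). The libraries measured the long precursors, not these mature forms.
miR822-5p from MIR822 (chr5:897287-897307, minus strand): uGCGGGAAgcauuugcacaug
miR822-3p from MIR822 (chr5:897067-897087, minus strand): uGUGCAAAugcuuucuacagg
miR414 from MIR414 (chr1:25137519-25137539, minus strand): uCAUCUUCaucaucaucguca
miR415 from MIR415 (chr1:27987018-27987038, plus strand): aACAGAGCagaaacagaacau
miR2936 from MIR2936 (chr4:1046948-1046969, minus strand): cUUGAGAGagagaacacagacg
miR5642a from MIR5642a (chr3:14197116-14197135, plus strand): uCUCGCGCuuguacggcuuu
miR835-5p from MIR835 (chr1:28544784-28544804, minus strand): uUCUUGCAuauguucuuuauc
miR835-3p from MIR835 (chr1:28544471-28544491, minus strand): uGGAGAAGauacgcaagaaag
miR8181 from MIR8181 (chr5:21641289-21641308, minus strand): uGGGGGUGggggggugacag
No pair of these shares a seed, so they fall into no seed group.

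The start regions of AT4G06790 and AT1G69252, both higher in DZ, and of AT5G09735 and AT1G19968, both lower in DZ, are given from 250 bases before to 50 after the annotated start. Capitals mark the motifs searched on both strands: AT4G06790 holds the core of the mitosis-specific activator once and the TATA box at 2 places, AT1G69252 a G box, AT5G09735 a W box, and AT1G19968 a site II element and the TATA box, all spelled out in the next paragraph and read here on either strand.
AT4G06790 (chr4:10175254-10175553, plus strand): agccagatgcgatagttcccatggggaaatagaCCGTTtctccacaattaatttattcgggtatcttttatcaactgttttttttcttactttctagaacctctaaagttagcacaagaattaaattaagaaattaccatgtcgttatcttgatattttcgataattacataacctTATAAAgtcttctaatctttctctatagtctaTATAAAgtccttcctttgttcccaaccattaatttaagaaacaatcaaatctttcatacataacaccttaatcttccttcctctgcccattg
AT1G69252 (chr1:26036483-26036782, plus strand): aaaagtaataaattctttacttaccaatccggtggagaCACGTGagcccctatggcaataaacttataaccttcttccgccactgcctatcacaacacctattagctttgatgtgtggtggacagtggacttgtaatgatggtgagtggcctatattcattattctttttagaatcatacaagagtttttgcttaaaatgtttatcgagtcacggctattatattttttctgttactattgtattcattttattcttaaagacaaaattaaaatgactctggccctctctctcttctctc
AT5G09735 (chr5:26683200-26683499, plus strand): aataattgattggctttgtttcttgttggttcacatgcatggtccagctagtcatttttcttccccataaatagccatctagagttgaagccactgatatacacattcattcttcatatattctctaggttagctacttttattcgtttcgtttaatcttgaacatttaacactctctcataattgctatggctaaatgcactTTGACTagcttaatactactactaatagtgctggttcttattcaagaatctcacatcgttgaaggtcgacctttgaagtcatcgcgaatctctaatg
AT1G19968 (chr1:6930011-6930310, plus strand): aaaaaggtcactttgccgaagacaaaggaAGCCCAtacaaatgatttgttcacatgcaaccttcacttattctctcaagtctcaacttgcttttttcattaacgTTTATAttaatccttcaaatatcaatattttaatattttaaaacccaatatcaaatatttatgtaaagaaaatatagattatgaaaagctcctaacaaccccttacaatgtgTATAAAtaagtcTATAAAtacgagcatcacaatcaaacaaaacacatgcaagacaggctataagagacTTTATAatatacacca

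Among the common loci with a start region in the table, 87 were higher in DZ and 68 lower. AACGG stood in 32.2% of the higher and 19.1% of the lower set, against 25% of 555 tested loci and 24.5% of 37897 genes of the annotation. The AC elements ACCTACC and ACCAACC, known from genes of lignin synthesis, stood in 8.05% of the higher set and 1.47% of the lower, against 4.5% of tested loci and 4.64% of genes. TATAAA was found in 51.7% of the higher set and 42.6% of the lower, and in 43.4% of tested loci and 48.8% of genes. The W box (TTGACC or TTGACT) was in 35.6% and 27.9%, against 31% of tested loci and 31.4% of genes. For the site II element (TGGGCC or TGGGCT) the shares were 17.2% and 22.1%, against 20.9% and 19.3%. The other motifs were rarer, given here in the same order. The telo box AAACCCTAA had 2.3% and 4.41%, against 3.06% and 3.64%. The E2F site TTTCCCGC had 0% and 1.47%, against 0.36% and 0.786%. The G box CACGTG had 5.75% and 7.35%, against 4.14% and 6.46%. The ABRE core CACGTC had 6.9% and 7.35%, against 5.59% and 6.45%. No motif search allowed mismatches, matches may overlap one another, and these shares were not tested.

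The 12 leading loci higher in DZ rose 3.70- to 8.73-fold. Leading loci, in both directions, were chosen for the largest fold change among common loci whose zones do not overlap, so that separation is part of the choice. The largest rise was that of AT4G03585 (chr4:162041-162822, minus strand), a lncRNA that lies wholly opposite an exon of CYP86A2, a fatty acid hydroxylase of cutin synthesis. It had 298, 148 and 353 CPM in proscoop12 DZ and 214 and 326 CPM in Ws DZ (replicates in number order here and below), against 14.3 to 49.2 CPM in MEZ (median 31.3). The zones did not overlap, and every DZ library was at least 3 times the highest MEZ library. The log2 fold change was 3.13 ± 0.27 (SE, n = 5 and 6, edgeR adjusted p = 3.74e-07), with 3.42 in proscoop12 and 2.79 in Ws. Like 257 of the tested loci it lies opposite a coding exon, and the strand that was counted is not given in the sources used here, so reads of the coding gene may be included.

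AT4G06790 (chr4:10175504-10175851), whose start region is printed above, overlaps no coding exon. It had 106, 37.3 and 71.6 CPM in proscoop12 DZ and 49.7 and 61.4 CPM in Ws DZ, against 5.07 to 17.9 CPM in MEZ (median 7.99). Each DZ library exceeded every MEZ library, and proscoop12 DZ replicate 1 was the highest. The difference was 2.90 ± 0.24 log2 (SE, edgeR adjusted p = 1.83e-07). AT4G09215 (chr4:16891400-16891847) showed 86.6, 93.9 and 128 CPM in proscoop12 DZ and 38.8 and 196 CPM in Ws DZ, against 8.96 to 25.2 CPM in MEZ (median 15.4). Its DZ libraries spread over 5-fold, from one Ws library to the other, and still did not reach down to MEZ (2.66 ± 0.30 log2, edgeR adjusted p = 3.02e-06).

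AT1G66173 (chr1:24642586-24644068) had 276, 523 and 341 CPM in proscoop12 DZ and 571 and 202 CPM in Ws DZ, against 23.5 to 122 CPM in MEZ (median 60.8), a difference of 2.48 ± 0.25 log2 (SE, edgeR adjusted p = 1.13e-06). AT3G52748 (chr3:19548972-19549589), which overlaps the listed locus AT3G52742, had 1038, 670 and 1985 CPM in proscoop12 DZ and 639 and 1789 CPM in Ws DZ, against 101 to 416 CPM in MEZ (median 223). In both genotypes its DZ level was highest in replicate 4. Its zone difference was 2.40 ± 0.14 log2 (SE, edgeR adjusted p = 1.02e-08). The most abundant of the 12 was AT1G69252 (chr1:26036733-26037659), printed above, with 941, 1801 and 2265 CPM in proscoop12 DZ and 2106 and 3713 CPM in Ws DZ, against 225 to 862 CPM in MEZ (median 517). The lowest DZ library stood just above the highest MEZ library, and the difference was 2.02 ± 0.13 log2 (SE, edgeR adjusted p = 3.55e-08).

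AT3G00880 (chr3:19152552-19153403) had 2076, 1619 and 1654 CPM in proscoop12 DZ and 1444 and 2069 CPM in Ws DZ, against 223 to 361 CPM in MEZ (median 324), with the smallest ratio of highest to lowest library among the 12, in both zones (2.54 ± 0.15 log2, edgeR adjusted p = 1.02e-08). A near-identical stretch lies in the coding gene AT3G51642, so reads of either may have been split between them. Another 5 leading loci had log2 fold changes of 1.89 to 2.1. Those that lie opposite coding exons are AT3G21781 opposite UGT71B6, a glucosyltransferase that acts on abscisic acid, with 2.1 ± 0.29, AT2G35945 opposite the homeodomain gene BLH1 with 1.98 ± 0.14, and AT1G08803 opposite a peroxidase gene of the thioredoxin-dependent kind (annotated as TPX2) with 1.89 ± 0.24. AT4G02845 (2.06 ± 0.14) and AT1G08687 (1.90 ± 0.19) overlap no coding exon. AT1G08687 shares 218 of its 570 nt, on the same strand, with the listed locus AT1G08697, so reads may have been split between them. AT1G67105, chosen after its values were seen, had a larger log2 fold change than 11 of the 12 (2.95 ± 0.32), but its zones overlapped: 13.6, 47 and 26.6 CPM in proscoop12 DZ and 142 and 45 CPM in Ws DZ, against 0 to 17.6 CPM in MEZ (median 5.08).

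**Figure D2:**
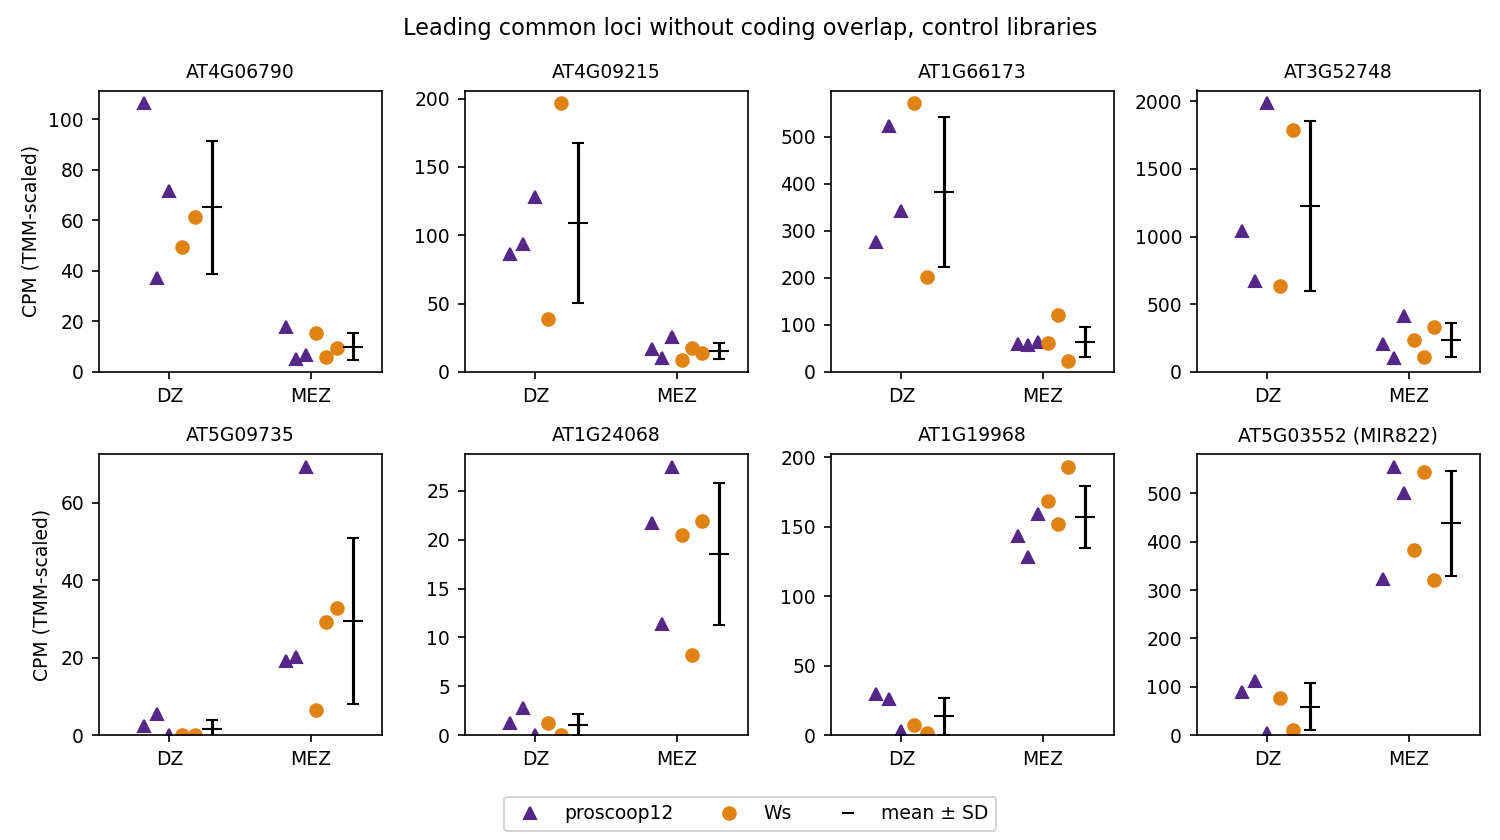
CPM per library of 8 leading common loci that overlap no coding exon, 4 higher in DZ (top row) and 4 lower in DZ (bottom row). Each panel has its own linear y axis from 0, purple triangles are proscoop12 libraries, orange circles are Ws libraries, and the black bar gives the mean ± SD over 5 DZ or 6 MEZ libraries, its lower end cut at 0 where it would pass below. All DZ points lie on one side of all MEZ points because the loci were chosen so; the panels show how far apart the zones lie and how the libraries spread.

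The loci lower in DZ went further: the 12 leading ones fell by 2.80 to 4.15 on the log2 scale. AT5G09735 (chr5:26683450-26683766), a lncRNA with no coding overlap, had 2.47, 5.52 and 0 CPM in proscoop12 DZ and 0 and 0 CPM in Ws DZ, against 6.4 to 69.1 CPM in MEZ (median 24.8). That is 6 reads over all DZ libraries and 145 over all MEZ libraries. The fitted change, −4.15 ± 0.63 on the log2 scale (SE, edgeR adjusted p = 5.77e-05), therefore rests on few DZ reads, and its size depends on how zero counts are handled. AT1G24068 (chr1:8515506-8515971) was similar, with 1.24, 2.76 and 0 CPM in proscoop12 DZ and 1.21 and 0 CPM in Ws DZ, against 8.2 to 27.4 CPM in MEZ (median 21.1), or 4 reads in DZ and 88 in MEZ (−3.84 ± 0.57 log2, edgeR adjusted p = 4.66e-05). AT3G05925 (chr3:11487212-11487529) had 9 reads in DZ and 82 in MEZ, with 0 to 6.18 CPM in DZ and 12.5 to 21.9 CPM in MEZ (−2.80 ± 0.52 log2).

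AT1G19968 (chr1:6930261-6930985), printed above, was better covered. It had 29.7, 26.2 and 3.33 CPM in proscoop12 DZ and 7.27 and 1.36 CPM in Ws DZ, against 128 to 193 CPM in MEZ (median 156), a change of −3.54 ± 0.42 log2 (SE, edgeR adjusted p = 4.96e-06). The MEZ libraries lay close together, while the DZ libraries of replicate 4 were the lowest of each genotype. MIR822 (AT5G03552, chr5:897020-897356, minus strand), precursor of the microRNA pair printed first, had 90.3, 112 and 5 CPM in proscoop12 DZ and 77.5 and 10.9 CPM in Ws DZ, against 321 to 554 CPM in MEZ (median 442). It fell by 3.14 on the log2 scale (SE 0.39, edgeR adjusted p = 9.02e-06). Within replicates 1 and 3 alone its log2 fold change was −2.31, and within replicate 4 alone −5.63. The same split held for all 12 leading lower loci, with −2.09 to −3.49 in replicates 1 and 3 and −3.69 to −8.16 in replicate 4, where DZ had 0 to 57 reads per locus; for the 12 leading higher loci it was 1.72 to 2.88 and 1.84 to 3.72. Sequencing run and replicate number cannot be told apart here. When loci were chosen anew on replicates 1 and 3 alone, 115 of 603 were common (19.1%), and 107 of these were among the 157.

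Several leading lower loci lie opposite coding genes, which bring names to them and also the doubt over strand. AT3G04615 (chr3:8678704-8679535), opposite AT3G24020, had 37.1, 76 and 21.7 CPM in proscoop12 DZ and 26.7 and 5.46 CPM in Ws DZ, against 274 to 592 CPM in MEZ (median 460; −3.84 ± 0.32 log2, edgeR adjusted p = 2.2e-07). AT4G06135 (chr4:7900564-7900798), opposite AT4G13580, had 13.6, 13.8 and 5 CPM in proscoop12 DZ and 14.5 and 2.73 CPM in Ws DZ, against 68 to 179 CPM in MEZ (median 111; −3.58 ± 0.28 log2, edgeR adjusted p = 1.46e-07). Both opposite genes are annotated as dirigent-like, a family whose members steer the coupling of lignin and lignan units. AT3G22121 lies opposite CWLP, a cell-wall proline-rich protein gene, and fell by 3.41 ± 0.36. AT4G04455 lies opposite GRH1, an F-box gene of the auxin receptor family, and fell by 3.33 ± 0.31. AT3G09965 is opposite the carboxypeptidase-like gene scpl40 (−3.15 ± 0.42), and AT5G09595 opposite GMD1, a GDP-mannose dehydratase gene of fucose supply, while it shares its own strand with AT5G66290 (−3.00 ± 0.21). AT1G08865, with no coding overlap, changed by −3.03 ± 0.28.

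Of the 2233 loci with reads, 279 had reads in DZ libraries alone and 326 in MEZ libraries alone, but 0 of the loci called after the filter on low counts had no read in a zone. AT2G08695, a common locus below the abundance needed for the leading list, came closest, with 2 reads in DZ and 73 in MEZ, all DZ reads in 1 library; its MEZ to DZ ratio was 28.3 with a 95% counting interval of 7.57 to 238, which covers counting error only. Without the filter, 5 called loci had 0 DZ reads and 16 to 33 MEZ reads, and 2 had 0 MEZ reads and 11 or 14 DZ reads. The best covered of them, AT1G07933, had 33 MEZ reads and 0 in DZ (edgeR adjusted p = 2.8e-05 over 2233 loci).

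By annotation class, the shares of common loci differed. Of 87 tested loci of the ncRNA class, 30 were common and higher in DZ and 6 common and lower. The misc_RNA class had 21 higher and 12 lower of 94, and the lncRNA class 33 higher and 43 lower of 318. Against 28% common among all tested loci, these are 41.4%, 35.1% and 23.9%. GUT15 (AT2G18440), a long-known unstable non-coding transcript named here after its values were seen, was among the higher ncRNA loci, with 413, 619 and 491 CPM in proscoop12 DZ and 726 and 574 CPM in Ws DZ, against 157 to 399 CPM in MEZ (median 218; 1.20 ± 0.16 log2, edgeR adjusted p = 1.98e-05). By position, loci free of coding exons held 53 higher and 27 lower common loci of 231 (34.6%), and loci opposite a coding exon 29 higher and 35 lower of 257 (24.9%). Loci on the same strand as a coding exon had 3 and 1 of 25 (16%), and loci with coding exons on both strands 2 and 5 of 42 (16.7%). With coding overlap and near-identical coding copies both set aside, 74 loci were common, 50 higher and 24 lower in DZ.

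**Figure D3:**
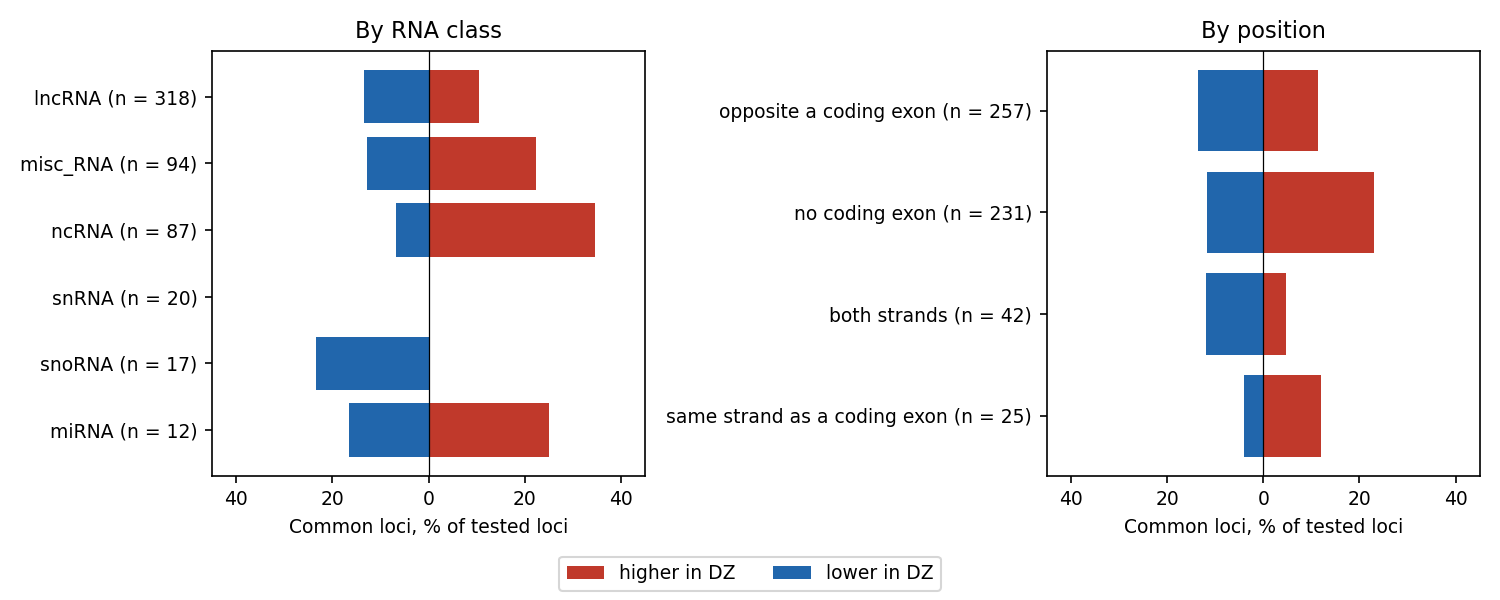
Share of tested loci that were common to both genotypes, by RNA class (left) and by position relative to coding exons (right). Bars to the right of 0 give the percentage higher in DZ and bars to the left the percentage lower in DZ, with the number of tested loci beside each name. The ncRNA class has 30 higher and 6 lower of 87 loci, and the snoRNA class 0 higher and 4 lower of 17.

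Of 17 tested snoRNAs 4 were common (23.5%, against 28% of all tested loci), each lower in DZ, and of 20 snRNAs 0 were common. The snoRNA AT1G06553 (chr1:11685235-11685376) had 19.8, 22.1 and 8.33 CPM in proscoop12 DZ and 7.27 and 10.9 CPM in Ws DZ, against 48.6 to 99.8 CPM in MEZ (median 71.9; −2.38 ± 0.27 log2, edgeR adjusted p = 3.3e-06). SNOR77 (AT5G10572) fell by 2.01 ± 0.43, AT1G07897 by 1.58 ± 0.16 and AT1G06283 by 1.32 ± 0.21; these loci were named after their values were seen. AT1G06283 has a near-identical stretch in the coding gene AT1G29418, AT1G07897 lies opposite AT1G53541, and SNOR77 shares its strand with the listed locus AT5G01775. Both-genotype calls in the snoRNA class were 1 higher and 7 lower, and in the snRNA class 0 and 2. Among all tested loci such calls were 24.5% higher and 25% lower. In mRNA libraries such RNAs without a poly(A) tail are read only in part.

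Of 12 tested microRNA precursors, 5 were common (41.7%, against 28% of all tested loci), 3 higher and 2 lower in DZ. Beside MIR822, MIR5642a (AT3G06345) was lower in DZ, with 55.7, 128 and 158 CPM in proscoop12 DZ and 90.9 and 158 CPM in Ws DZ, against 152 to 312 CPM in MEZ (median 194; −1.02 ± 0.19 log2, edgeR adjusted p = 0.000331). Its zones overlapped, and it has a near-identical copy in AT2G01008. MIR5642a also lies in part (24.6%) opposite exons of AT3G41762 and shares 92 nt of its own strand with the listed locus AT3G06325. Its reads may therefore come from other transcripts. MIR414 (AT1G67195, chr1:25137456-25137563), free of coding exons, was higher in DZ, with 114, 110 and 71.6 CPM in proscoop12 DZ and 86 and 60 CPM in Ws DZ, against 15.7 to 33.3 CPM in MEZ (median 25.5; 1.81 ± 0.20 log2, edgeR adjusted p = 2.1e-06). MIR415 (1.80 ± 0.20) and MIR2936 (0.78 ± 0.13) were also higher, but both lie within exons of coding genes on the same strand, AT1G74458 and AT4G02380 (SAG21, a late embryogenesis abundant protein gene), so their reads cannot be told apart from the coding transcript. MIR835 (−1.01 ± 0.25) and MIR8181 (−1.13 ± 0.25), likewise inside coding exons, passed for both genotypes together and in proscoop12, and did not pass in Ws. MIR842 did not pass for both genotypes together (−0.58 ± 0.33) but was lower in proscoop12 DZ (−1.37 ± 0.33, edgeR adjusted p = 0.00435), with 0.43 ± 0.38 in Ws. MIR163 (0.31), MIR398b (0.43), MIR860 (−0.05) and MIR5629 (1.02) passed neither together nor in a genotype.

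The precursors of trans-acting siRNAs, which microRNAs cut to start siRNA production, gave no call for both genotypes together: TAS1A had a log2 fold change of −0.22 ± 0.19, TAS1B −0.07 ± 0.22, TAS1C −0.72 ± 0.38, TAS2 −0.23 ± 0.29 and TAS3 0.09 ± 0.12 (SE). In the genotypes fitted separately, TAS1C was lower in proscoop12 DZ (−1.58 ± 0.40 log2, edgeR adjusted p = 0.00552), with 0.40 ± 0.45 in Ws, and the other 4 passed in neither. TAS3, whose siRNAs act on auxin response factor genes, was the most abundant, with 1043, 943 and 1649 CPM in proscoop12 DZ and 868 and 1666 CPM in Ws DZ, against 766 to 1665 CPM in MEZ (median 1038). Its zones overlapped almost wholly.

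Loci opposite genes of set functional lists were few. Of 3 tested loci opposite Casparian strip, suberin, cutin and wax genes, 3 were common and higher in DZ, as were 15.9% of all tested loci (median log2 fold change 1.07, against −0.01 for all tested loci). They were AT4G03585 opposite CYP86A2, described above, AT1G04247 opposite KCS2, an elongase of suberin and wax chains, and AT2G37362 opposite ABCG2, a transporter needed for the suberin barrier. AT1G04247 had 183.1, 209 and 298 CPM in proscoop12 DZ and 201.1 and 306 CPM in Ws DZ, against 81.9 to 191 CPM in MEZ (median 104; 1.07 ± 0.15 log2, edgeR adjusted p = 3.56e-05), and its zones overlapped by 1 library. AT2G37362 had 542, 337 and 383 CPM in proscoop12 DZ and 396 and 358 CPM in Ws DZ, against 195 to 268 CPM in MEZ (median 217; 0.88 ± 0.14 log2, edgeR adjusted p = 0.000109). With library totals as the scale neither of these 2 loci passed. Names starting with DIR, for dirigent genes, were also on this list, but the dirigent-like genes AT3G24020 and AT4G13580 were not matched by name. The loci opposite them, AT3G04615 (−3.84 log2) and AT4G06135 (−3.58 log2), were common and lower in DZ, against the direction of the matched loci.

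Of 5 loci opposite division and microtubule genes, 3 were common and lower in DZ, as were 12.1% of all tested loci, and 1 was common and higher (median of the 5, −0.80). AT1G07983, opposite GAMMA-H2AX, a histone variant marked at DNA breaks, had 33.4, 16.6 and 6.66 CPM in proscoop12 DZ and 18.2 and 5.46 CPM in Ws DZ, against 36.2 to 94.7 CPM in MEZ (median 58.6; −1.88 ± 0.27 log2, edgeR adjusted p = 3.43e-05). AT1G07603, opposite part of the α-tubulin gene TUA2 and a near copy of TUA4, changed by −1.81 ± 0.22, and AT3G07315, opposite the histone H2B gene HTB9, by −0.80 ± 0.14. The fourth common locus of the list, AT1G08803, was higher, but the peroxidase opposite it only shares the name TPX2 with the spindle protein. The fifth, AT1G27921 opposite MAP65-8, a microtubule bundling protein gene, did not pass for both genotypes together (0.73 ± 0.44) but was higher in Ws DZ (2.11 ± 0.41, edgeR adjusted p = 0.00131), against the direction of the 3 lower loci. The 1 locus matched to the meristem and patterning list, AT1G35545, was common and lower (−1.58 ± 0.17); it lies opposite exons of the auxin response factor gene ARF14, which put it on the list, and opposite those of AT1G35550, which is not on it. The lists were matched on the start of gene names, which brings in other genes. Of 3 loci matched to root hair and expansion genes 1 was lower for both genotypes together (AT2G35859 opposite FLA16, −0.54 ± 0.19), of 2 opposite lignin and secondary wall genes 1 (AT5G60022 opposite LAC17, −1.42 ± 0.36), of 6 opposite defence and peptide signalling genes 1 (AT5G06865 opposite PGIP1, −0.69 ± 0.20), and of 2 opposite transport genes 0. For both genotypes together, 25% of all tested loci were lower in DZ and 49.5% passed in either direction. None of the loci in these 4 lists was common to both genotypes, against 28% of all tested loci.

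No locus was shown to differ in its zone effect between the genotypes. A test of the difference, zone effect in proscoop12 minus that in Ws, called 0 of 560 loci (0%) by edgeR and 0 by DESeq2, while 31 had an unadjusted edgeR p under 0.05, where 5% of 560 is 28. On simulated counts this test recovered 22% of 2-fold and 80% of 4-fold differences, so equal zone effects are not shown. The median absolute difference between the genotypes was 0.23 log2 over common loci and 0.31 over all tested loci. The smallest p belonged to AT1G27921: it had 9.9, 19.3 and 18.3 CPM in proscoop12 DZ and 83.6 and 50.5 CPM in Ws DZ, against 2.56 to 32.9 CPM in MEZ (median 17.2). Its zone effect was −0.55 in proscoop12 and 2.11 in Ws, a difference of −2.66 ± 0.58 (edgeR adjusted p = 0.25). AT1G04425 (−1.52 in proscoop12, −0.38 in Ws) and MIR842 (−1.37 and 0.43) came next and did not pass either. AT1G04425 overlaps the listed locus AT1G08835.

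Some loci ran together. Over the 11 libraries, which share the zone difference, the profiles most like that of AT4G03585 were those of AT1G07143 (Spearman's rho 0.93), AT1G08803 (0.89) and AT1G07128 (0.88). Those most like AT5G09735 were AT2G05135 (0.94), AT5G09745 (0.92) and AT1G76878 (0.91). AT5G09745 is also its neighbour on chromosome 5, at a distance of 2320 nt, and had 1.24, 13.8 and 1.67 CPM in proscoop12 DZ and 3.64 and 0 CPM in Ws DZ, against 5.12 to 86.2 CPM in MEZ (median 48.8). Within 5 kb of each other lay 4 pairs of common loci, and both members of each had the same direction. Pairs of tested loci at that distance were not counted, so this agreement has no share to stand beside and was not tested.

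The largest signal by reads came from the organelles. Reads on 42 mitochondrial and plastid loci made up 39.3% ± 2.86 of listed reads in DZ (SD, n = 5) and 19.2% ± 2.0 in MEZ (SD, n = 6), a difference of 20.1 percentage points. An exact two-sided permutation test over the libraries gave p = 0.00433, the smallest that 462 splits allow. It moved the zone labels freely over all 11 libraries, without the replicate blocks used in the other fits. Replicate by replicate, proscoop12 DZ replicate 1 had 43.9%, against 17.7% and 17.8% in MEZ; replicate 3 had 38.5% in both DZ libraries, against 17.2% and 21.9% in MEZ; replicate 4 had 36.1% and 39.3% in DZ, against 18.9% and 21.4% in MEZ. The mitochondrial ribosomal RNAs carried it: ATMG00020 was higher in DZ by 1.73 ± 0.17 log2 and ATMG01390 by 1.61 ± 0.17, both common. ATMG01380 (0.12 ± 0.29) and the plastid loci ATCG00920 (0.20 ± 0.20) and ATCG00950 (0.17 ± 0.19) did not pass. The share of nuclear ribosomal loci ran the other way, with 36.6% to 52.4% in DZ and 61.9% to 70.4% in MEZ. Both are shares of the same total, so a rise of one lowers the other. On the TMM scale the 3 tested loci of the rRNA class had log2 fold changes of −0.69 to 0.57 (median 0.275). Of these, 1 was lower for both genotypes together and 0 were common. Like snoRNAs, ribosomal RNAs are read only in part in mRNA libraries.

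**Figure D4:**
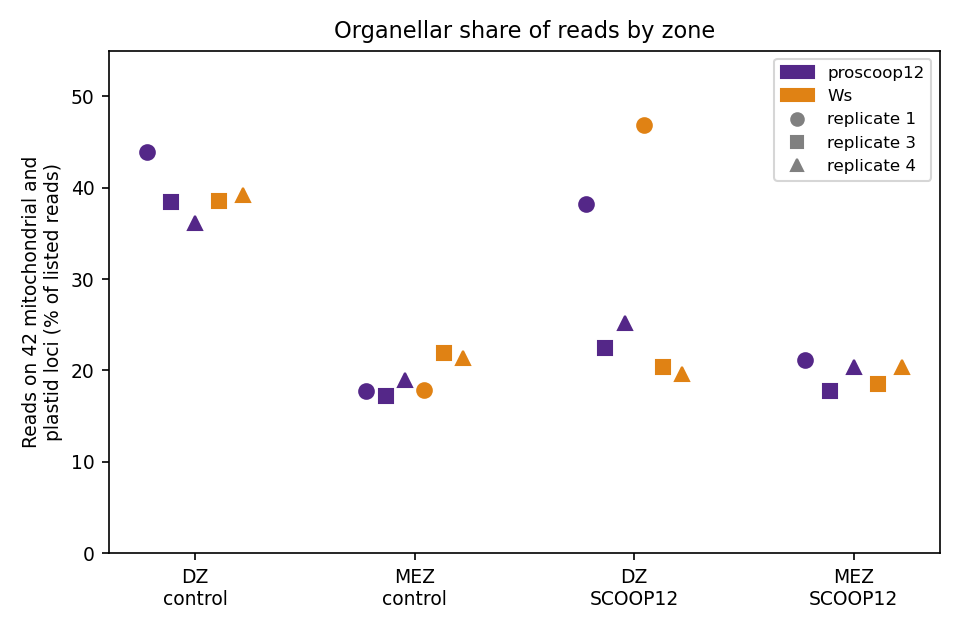
Share of listed reads on the 42 mitochondrial and plastid loci, in percent on the y axis, for each library by zone and treatment. Colours give the genotype and symbols the replicate number. Control DZ libraries lie between 36.1% and 43.9% and control MEZ libraries between 17.2% and 21.9%; of the DZ libraries with SCOOP12, those of replicate 1 lie at 38.2% and 46.9% and those of replicates 3 and 4 between 19.7% and 25.2%.

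Libraries from plants given SCOOP12 carry the same zone labels and did not choose the common loci. Those labels could not be checked by markers either. The organellar shares of the MEZ libraries with SCOOP12 were 17.7% to 21.2%. Those of the DZ libraries of replicates 3 and 4 with SCOOP12 (19.7% to 25.2%) lie nearer to control MEZ (17.2% to 21.9%) than to control DZ (36.1% to 43.9%). Whether these libraries hold the zone on their label was not tested, and each zone effect with SCOOP12 below depends on it. Fitted alone, 221 of 589 loci passed there (37.5%; 114 higher and 107 lower in DZ). Of the 157 common loci 151 were tested there: 144 had the same sign, 116 passed with it and 0 passed with the other. The library labelled Ws DZ SCOOP12 replicate 3 carries the file name of a proscoop12 DZ control; without it, again 144 of 151 had the same sign and 112 passed with it. Their zone effects were smaller, with medians of 0.59 for the higher and −0.90 for the lower loci, against 1.40 and −1.74 without SCOOP12. The common loci were chosen on the control libraries, so these medians do not compare the treatments on equal terms. AT4G03585 had a log2 fold change of 0.09, AT3G52748 of 0.02, AT1G08803 of 0.14 and AT3G00880 of −0.29 with SCOOP12, where none of them passed. AT1G19968 (−2.36), AT3G22121 (−2.18) and AT1G08687 (1.52) passed there with larger differences. Without the replicate block only 47 of the 589 loci passed with SCOOP12; with replicates 3 and 4 alone, 137 of 150 common loci had the same sign, 111 passed with it and 2 with the other. Both of these selections of libraries were made with the values already known.

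**Figure D5:**
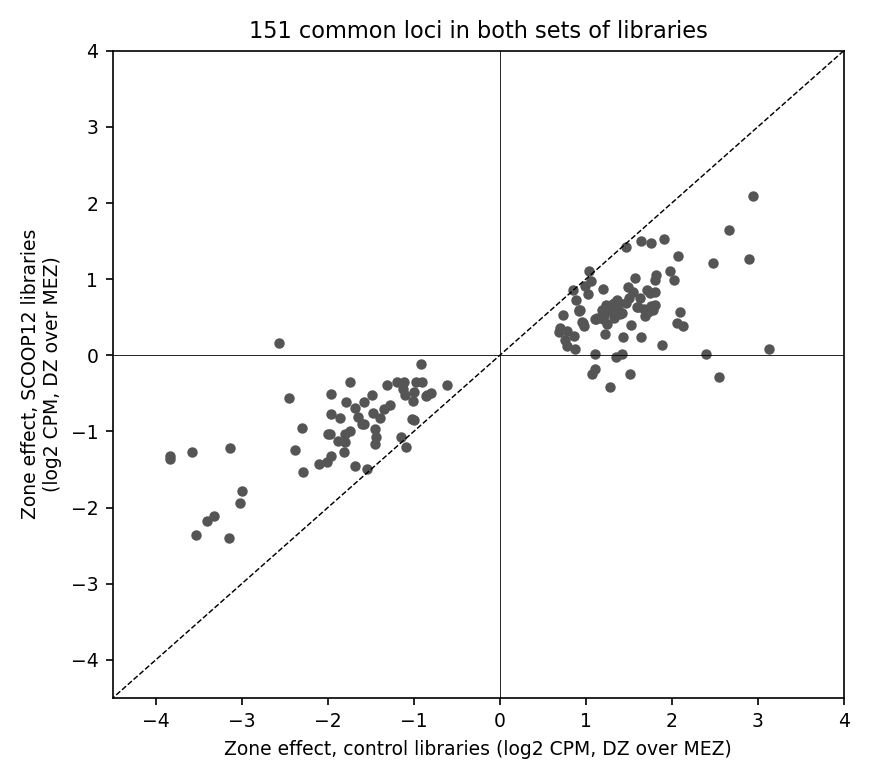
Zone effect of the 151 common loci that were tested in both sets of libraries. The x axis is the log2 fold change, DZ over MEZ, in control libraries, the y axis the same in libraries with SCOOP12, each point is a locus and the dashed line marks equal effects. Most points lie between the x axis and the line, 144 of 151 have the same sign, and 4 of the leading higher loci lie near 0 on the y axis.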

How the data were processed

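Total RNA of DZ and MEZ samples was made into stranded mRNA libraries, which were read from both ends for 100 nt (per the labels' protocols). Salmon and DESeq2 are the tools named in the submitters' processing notes. Values analysed are the estimated counts the authors deposited (NumReads), 1 row per locus, and 1.28% to 1.82% of values per control library were fractional before rounding (tolerance 0.001). The deposited TPM sum to 1000000 and served only as a check. Which Salmon version, strand setting, build and annotation were used was not stated in those sources. Of 5224 loci, 5182 matched RefSeq's TAIR10.1 annotation by name, and 99.5% of these had equal length; it served for names, classes, neighbours and sequences. Reads of coding genes may count on loci that overlap their exons, and near-identical coding stretches (95% identity over 100 nt, blastn 2.17.0) are named beside the locus.

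Rounded counts were fitted in edgeR 4.0.16 (R 4.3.3, limma 3.58.1) with TMM, filterByExpr by zone (minimum count 10, total 15) and the quasi-likelihood F test, adjusted by Benjamini-Hochberg over 560 loci. Each genotype's zone effect came from a fit of 4 means with the replicate as block. Standard errors (SE) were derived as |log2 fold change| divided by √F. The fit was tested on simulated counts with known changes. Calls common to both genotypes recovered 46% of 2-fold and 94% of 4-fold changes there. Before the changes, each simulated locus had 1 mean, with no replicate effect and no genotype effect. Of 560 loci, 100 were changed by 2-fold and 100 by 4-fold. All recovery rates given here hold for that setting and may differ in these libraries. Permutation used scipy 1.17.1. After group means were removed, libraries of the same number correlated at 0.164 to 0.49 (15 pairs) and others at −0.49 to 0.322. For the zones of proscoop12 (3 pairs) the values were 0.198 to 0.452, and the numbers were taken to pair the samples. With means of so few libraries removed, positive values for the same number bring negative ones for others. The sequencing run of replicate 4 could also raise values for the same number, so pairing of samples was not tested. Within groups, replicates differed by more than counting error (chi-square divided by degrees of freedom between 8.78 and 105 in 10 pairs). Whether replicates are separate cultures is not in the labels, and p-values reflect only how these samples spread.

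Named are the 12 common loci each way with the largest fold change, a mean of at least 10 CPM and zones that do not overlap; tested MIR and TAS precursors; common loci opposite genes of the functional lists; the 3 loci with the smallest p of the difference between genotypes; and loci said in the text to be chosen after their values were seen. The result of 1 functional list is not reported here. Members and lists were chosen with earlier results of these data known. Alternatives were other scalings and filters, DESeq2 1.42.0, no block, single libraries left out, library identity by file name, and the separate replicates.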

Additional observations from a re-analysis of the deposited data

Results flagged for a closer look

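Of 52 groups of 5 DZ or 6 MEZ control libraries looked at, 2 held a library far from the others, about what chance gives (1 in 20). At AT5G09595, Ws MEZ replicate 4 had 608.4 CPM against 408 to 482 CPM in the other MEZ libraries. The share of reads on nuclear ribosomal loci was 36.59% in proscoop12 DZ replicate 1, against 47.8% to 52.4% in the other DZ libraries.

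The zone effect without SCOOP12 was also set against that with SCOOP12 in a fit of all 22 libraries, chosen after the data had been seen. Of 566 loci 77 passed this difference by edgeR (13.6%). Among the common loci higher in DZ, 41 of 89 passed with a smaller zone effect with SCOOP12 and 0 with a larger one, and among those lower in DZ 23 of 62 and 0. Without both libraries whose file names give another group, 47 of 590 loci passed, and these counts of smaller effects came to 20 and 18; with replicates 3 and 4 alone they came to 32 and 21. Both of these selections, too, were made with the values already known. The common loci were chosen for their effect without SCOOP12, and the zone labels of the DZ libraries with SCOOP12, whose organellar shares in replicates 3 and 4 are near those of control MEZ, could not be checked. As zone effect without SCOOP12 minus that with SCOOP12, the differences at 3 leading loci were 3.0 ± 0.44 log2 at AT4G03585, 2.73 ± 0.23 at AT3G00880 and 2.36 ± 0.29 at AT3G52748 (SE).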

How the results depend on the processing

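Over all alternatives run, the count of loci for both genotypes together reached 356 (no filter on low counts) and was lowest with replicate 4 only, but within 1.5 times of the reported count, that in proscoop12 between 179 and 239, and that in Ws and in common between 117 and 205 and between 108 and 164. The replicate block changed counts by less than 1.5 times without SCOOP12 (no block: 179 loci in proscoop12, 162 in Ws, 130 in common, 0 for the difference between genotypes), but without it only 47 of 589 loci passed in the libraries with SCOOP12. Leaving out single libraries gave 256 to 276 loci for both genotypes, 181 to 230 in proscoop12, 117 to 193 in Ws, 108 to 156 in common and 0 for the difference between genotypes; it moved the organellar difference between 18.9 and 20.9 percentage points. By file name the counts were 271 for both genotypes, 164 in Ws and 134 in common, and the organellar difference 16.5; as a share of organellar and nuclear ribosomal reads it was 23.1. With replicates 1 and 3 only, 1 locus differed between the genotypes, AT2G03865; the cause was not tested. Of the 37 loci named by rule that passed, 34 passed in every alternative in which they were tested, other than replicate 4 only (AT5G09735 and AT1G24068 were tested in 16 of 22, AT3G05925 in 20 and AT3G06345 in 21), 5 lost the call in some (AT1G04247, AT2G37362 and AT4G04125 with library totals; AT2G37362, AT1G76062 and AT5G07965 with replicate 4 only), and 0 reversed. Loci with few DZ reads set the limit of depth: a fold change there gives a direction rather than a size.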

Other observations

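AT2G03865 (a misc_RNA locus with no coding overlap) was listed at 0 in Ws DZ replicate 3 and in Ws MEZ replicate 1. Its other control libraries had 391, 231 and 3546 CPM in proscoop12 DZ (replicates 1, 3 and 4), 2844 CPM in Ws DZ replicate 4, 413, 243.3 and 3464 CPM in proscoop12 MEZ, and 383 and 1949 CPM in Ws MEZ replicates 3 and 4. The libraries of replicate 4 were the highest in each group.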
